A study of Mus musculus with 2 samples.

Results

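The 9 genes described here belong to the programme of the liver X receptor (LXR) and of cholesterol efflux. They are Nr1h3, Abca1, Abcg1, Pltp, Mylip, Lpcat3, Srebf1, Scd2 and Apoc2, taken by symbol from the 27998 gene identifiers of the files. They were chosen by UMI counts of the same libraries, from results already known, so their levels and their co-variation are a description. The study counted single-cell RNA in 2 libraries of CD45+ immune cells sorted from subcutaneous tumours of C57BL/6 mice. The tumours grew from 50000 cells of MC38-GFP, colon adenocarcinoma cells of mouse origin with a fluorescent marker protein. All mice were under antibody blockade of PD-1, an inhibitory receptor of T cells, at a dose the labels call sub-optimal, 100 ug given first at day 12, again at days 15 and 18, and last at day 22. The labels give 1 responder and 1 non-responder library and no untreated group, age, sex or number of mice per library.

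LXRα, encoded by Nr1h3, and LXRβ, encoded by Nr1h2, are nuclear receptors that bind oxysterols, the oxidised forms of cholesterol, and sit on DNA together with a retinoid X receptor such as RXRα (Rxra). In macrophages, which take in cholesterol with lipoproteins and dead cells, the receptors are known to switch on genes that export cholesterol and remodel phospholipids. The SREBP-2 factor, encoded by Srebf2, works on the other side of the same balance and is known to drive cholesterol synthesis and uptake when membranes are short of sterol. SREBP-1, encoded by the LXR target Srebf1, drives fatty acid synthesis and desaturation.

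The LXR and retinoid X receptor pair binds a direct repeat of AGGTCA with 4 free letters between the copies, and the promoters show where such letters stand near the genes of this programme. RefSeq promoter windows of GRCm38.p6, which run from 250 bases before to 50 after a start, existed for 7 of the 9 genes in 10 windows. Abcg1 and Scd2 had none. With up to 2 mismatches on either strand, 0 of the 7 genes held the repeat, against 3.47% of all 27025 genes with a window. With up to 3 mismatches Abca1 and Srebf1 held it, against 24.5% of all genes. The letters in common between these matches, GGGTTACTNNCGGTCA, were chosen after the matches had been seen. They stood in 3 of 27025 genes with a window. Abca1 and Srebf1 are among these by construction, since the letters were taken from their matches. The other gene was Fasn, which encodes fatty acid synthase and is a known LXR target. The 250 bases before each start are shown 5′ to 3′ in the direction of the gene, because these promoters share the letters. Capitals mark the 16 letters, which lie on the opposite strand and so appear as their reverse complement. The windows are Abca1 at chr4:53159896-53160145, Srebf1 at chr11:60210472-60210721, which is window 3 of its 3, and Fasn at chr11:120824548-120824797, all on the minus strand.
Abca1: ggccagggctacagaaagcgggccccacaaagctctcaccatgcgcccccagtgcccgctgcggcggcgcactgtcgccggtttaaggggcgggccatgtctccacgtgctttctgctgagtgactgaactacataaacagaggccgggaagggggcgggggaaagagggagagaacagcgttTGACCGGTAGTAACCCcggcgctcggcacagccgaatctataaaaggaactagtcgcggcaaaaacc
Srebf1: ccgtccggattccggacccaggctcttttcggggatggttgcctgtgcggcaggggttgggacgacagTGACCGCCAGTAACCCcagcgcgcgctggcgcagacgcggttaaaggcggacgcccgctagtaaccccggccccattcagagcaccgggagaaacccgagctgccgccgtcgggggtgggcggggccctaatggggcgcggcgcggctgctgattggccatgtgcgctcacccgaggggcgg
Fasn: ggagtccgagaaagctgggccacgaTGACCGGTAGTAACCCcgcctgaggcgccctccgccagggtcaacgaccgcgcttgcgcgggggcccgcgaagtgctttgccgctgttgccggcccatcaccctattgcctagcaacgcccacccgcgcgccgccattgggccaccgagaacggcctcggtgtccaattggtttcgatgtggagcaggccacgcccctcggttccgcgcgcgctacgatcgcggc
The 16 letters ran from -67 to -52 before the start in Abca1, from -182 to -167 in Srebf1 and from -225 to -210 in Fasn. Abca1 and Fasn carried the same letters, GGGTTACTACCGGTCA, and Srebf1 carried GGGTTACTGGCGGTCA. The element of SREBP factors, with up to 1 mismatch on either strand, was in 0 of the 7 genes, against 2.22% of all genes. A match is a run of letters and not a measured binding site, and its absence says only that the letters are not in the window.

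The responder library held 4425 barcodes with a median of 10000 unique molecular identifiers (UMIs, tags that count molecules), and the non-responder library held 2580 with a median of 11729. The libraries shared 14 barcodes. After filters, 4150 of 4376 responder cells and 2358 of 2565 non-responder cells were macrophage-like, a name given to clusters by marker genes. The macrophage-like cells spread over 11 clusters, and each library had 8 of them with 20 or more cells. Responder cells were mostly in clusters 1 (led by Ifit3, Oasl1 and Cxcl10), 4 (Cox4i2, Aldoc and Prelid2), 5 (Cd300e, Clec4b1 and Gbp2b), 7 (Ifitm1, Ly6i and Il1r2), 10 (H2afx, Cenpe and Ccna2) and 14 (Ccl5, C3 and Dnase1l3). Non-responder cells were mostly in clusters 0 (Fcrls, Gpr34 and Ccl12), 2 (Pbk, Ccnb1 and Nusap1), 3 (Ramp1, Gpr34 and Egr1), 8 (Adm, Pmp22 and Gpnmb) and 9 (Retnla, Cxcl3 and Retnlg). Clusters 4, 7, 8, 9 and 10 had 20 or more cells of each library. Ptprc, the gene of CD45, was detected in 77.8% of responder cells and 74.4% of non-responder cells of the macrophage-like class, but in 3 of 22 responder and 3 of 20 non-responder fibroblast-like cells. With 1 library in each group no difference below has a replicate check. Brackets hold 95% intervals, which cover counting error only.

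In macrophage-like cells Nr1h3, Abcg1 and Mylip were at or above 1.5 times the non-responder level in the responder library, while Srebf1 and Scd2 were lower by at least that factor. Thus 3 of the 8 genes with 50 or more counts were past 1.5-fold on the high side and 2 on the low side, against 8.08% and 11.4% of all 10855 genes with as many counts. With TMM scaling these background shares were 11.0% higher and 8.36% lower, since it moved the median of all genes by 0.12 on the log2 scale. The median log2 ratio, responder over non-responder, was 0.24 for the 8 genes and -0.09 for all genes. Because the genes were chosen with these libraries in view, nothing is read from these shares. Levels are given as CPM, the UMIs of a gene summed over the cells of a group and scaled to the same total in every group, and since tags from 3′ ends do not measure transcript length, levels are compared between groups and not between genes. Clusters were built with the 9 genes left out of the variable genes, but genes that vary with them remained.

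Nr1h3 (ENSMUSG00000002108, chr2:91184061-91202834 of GRCm38, minus strand) had 31.3 CPM in responder macrophage-like cells and 11.8 CPM in non-responder cells. The log2 ratio was 1.41 [1.24 to 1.59], from 1350 responder and 346 non-responder counts. In the responder library its level was 83.2 CPM in cluster 14, 58.9 in cluster 9, 47.2 in cluster 1, 30.6 in cluster 7, 28.2 in cluster 5, 21.9 in cluster 4, 21.6 in cluster 10 and 18.7 in cluster 8. Only the step between clusters 1 and 7 separated neighbours in this order beyond their intervals. Clusters further apart in the order could still separate, as cluster 14 [71.0 to 96.9] did from cluster 1 [42.0 to 52.8]. In the non-responder library the level ran from 20.6 CPM in cluster 9 down to 0 counts in the 26 cells of cluster 7, with no neighbours separated. The highest non-responder cluster was thus below 7 of the 8 responder clusters, though its interval overlapped those of responder clusters 4, 5, 7, 8 and 10. All 4 shared clusters with counts in each library were higher in responder cells, and the intervals of cluster 4, with 184 responder counts and 1 non-responder count, and of cluster 9 lay above 0. The ratio of cluster 9 was 1.51 [0.52 to 2.46]. Nr1h2, the gene of the partner receptor LXRβ, was at 53.2 CPM in responder and 47.4 CPM in non-responder cells, a log2 ratio of 0.17 [0.07 to 0.26]. Rxra was at 5.31 CPM in responder and 6.32 CPM in non-responder cells, with a log2 ratio of -0.25 [-0.54 to 0.04].

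**Figure D1:**
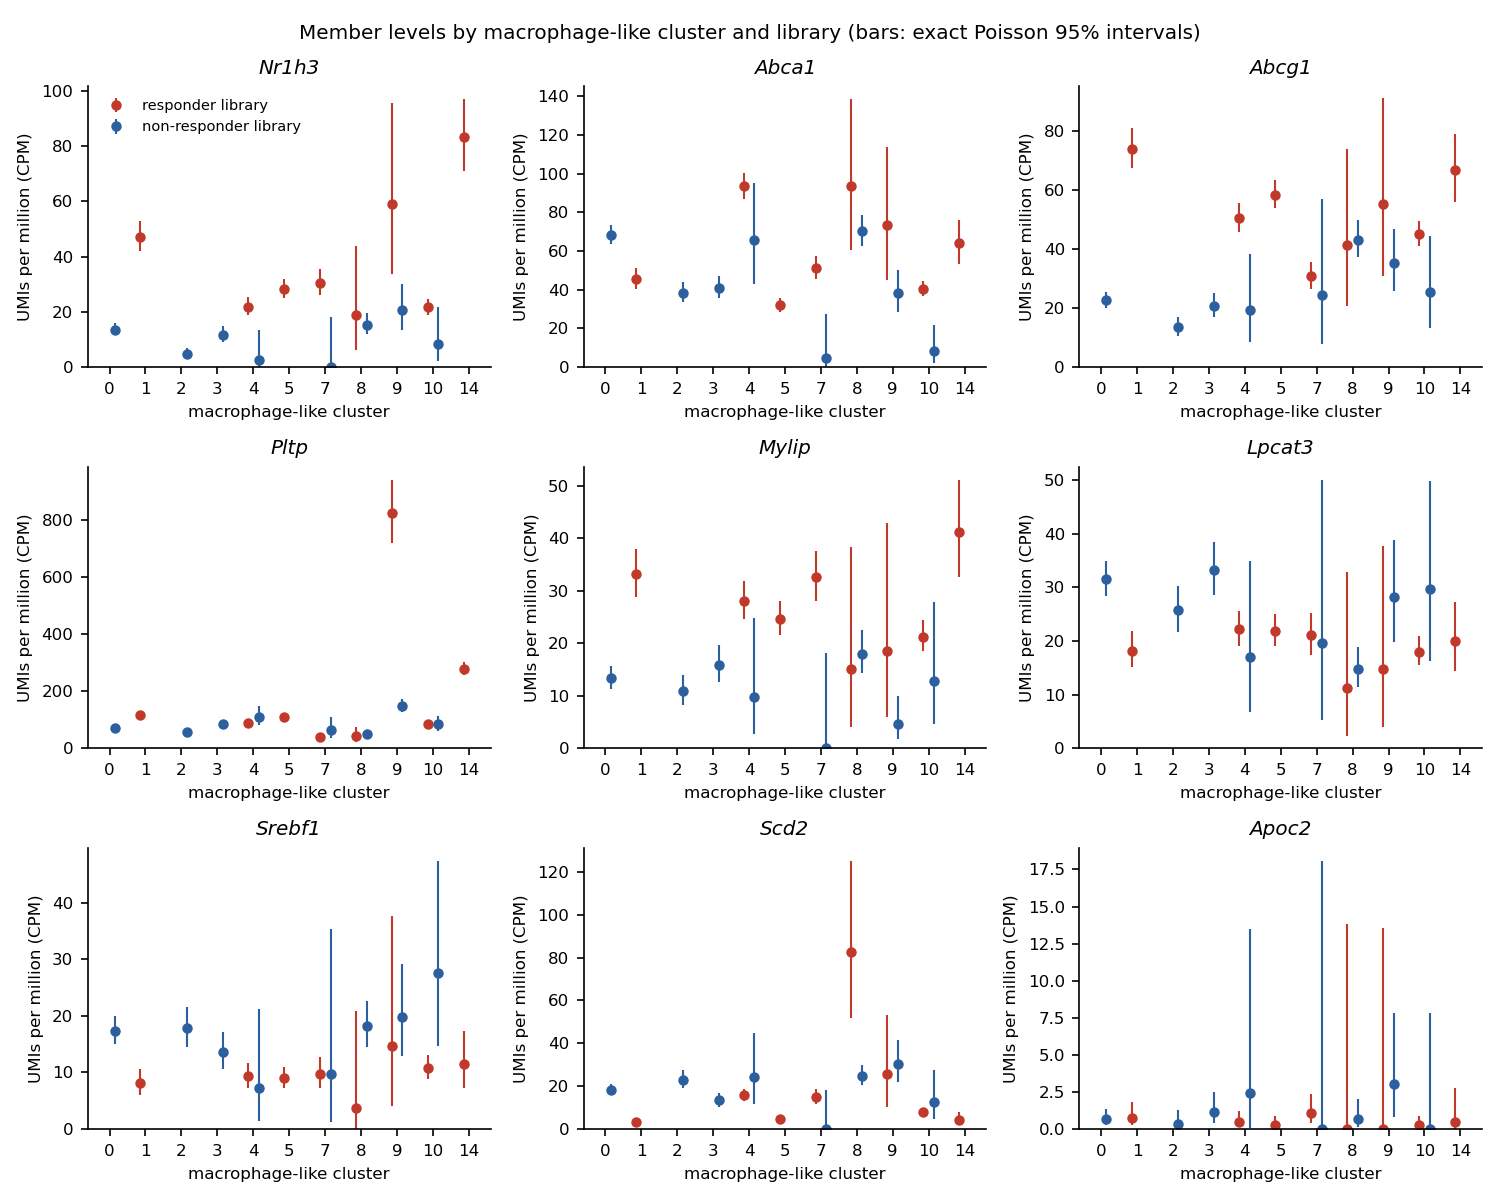
Level of each gene in CPM (vertical axis, starting at 0) in every macrophage-like cluster with 20 or more cells of a library, responder in red left of non-responder in blue. Points are summed counts and bars are exact Poisson 95% intervals. Pltp stands at 824.6 CPM in responder cluster 9 and Scd2 at 82.5 CPM in responder cluster 8, while Nr1h3 is at or under 20.6 CPM in every non-responder cluster.

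Abca1 (ENSMUSG00000015243, chr4:53030787-53159895, minus strand) encodes the transporter that hands cholesterol and phospholipid to lipid-poor apolipoprotein A-I. Over all macrophage-like cells its level was the same within counting error, with 52.9 CPM in the responder library and 54.7 CPM in the non-responder library, a log2 ratio of -0.05 [-0.14 to 0.05], or 0.07 with TMM scaling. Its order over clusters differed from that of Nr1h3. In the responder library it was highest in cluster 8 with 93.7 CPM and cluster 4 with 93.4 CPM, and lowest in cluster 5 with 32.2 CPM. In the non-responder library clusters 8, 0 and 4 had 70.2, 68.3 and 65.5 CPM, which did not separate from each other, and clusters 10 and 7 had 8.51 and 4.89 CPM from 4 and 1 counts. In each of the 5 shared clusters the responder cells were higher, with log2 ratios of 0.51 [-0.04 to 1.12] in cluster 4, 3.39 [0.90 to 8.70] in cluster 7, 0.42 [-0.23 to 1.01] in cluster 8, 0.95 [0.12 to 1.72] in cluster 9 and 2.25 [0.88 to 4.13] in cluster 10. The intervals of clusters 7, 9 and 10 lay above 0, and the mean of the 5 ratios was 1.503. The near-equal totals therefore stood beside unequal clusters: the 1024 responder cells of cluster 5 were at the low end, and the 877 non-responder cells of cluster 0 were near the top of their library. In clusters 4, 7 and 10 the non-responder side was 35, 26 and 26 cells.

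Abcg1 (ENSMUSG00000024030, chr17:31057675-31117988, plus strand) encodes a transporter that passes cholesterol to high-density lipoprotein. It had 52.7 CPM in responder and 24.4 CPM in non-responder macrophage-like cells, a log2 ratio of 1.11 [0.99 to 1.24]. In the responder library it ran from 74.0 CPM in cluster 1 and 66.7 CPM in cluster 14 to 30.8 CPM in cluster 7. In the non-responder library it ran from 43.1 CPM in cluster 8 to 13.5 CPM in cluster 2. No neighbours in either order separated beyond their intervals, but the ends of each order did. Responder cluster 1 had [67.5 to 80.9] and cluster 7 [26.3 to 35.7], and non-responder cluster 8 had [37.2 to 49.7] and cluster 2 [10.7 to 16.9]. In cluster 8 the libraries were close, at 41.2 CPM in responder and 43.1 CPM in non-responder cells, a log2 ratio of -0.06 [-1.09 to 0.81]. The other 4 shared clusters had ratios from 0.33 to 1.38, and the interval of cluster 4 alone lay above 0.

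Pltp (ENSMUSG00000017754, chr2:164839518-164857711, minus strand) encodes a secreted protein that transfers phospholipids between lipoproteins. Its level was 104.0 CPM in responder and 72.2 CPM in non-responder macrophage-like cells, a log2 ratio of 0.53 [0.45 to 0.60], which is short of 1.5-fold; it was past it at 0.64 with TMM scaling and at 0.65 without cluster 7. Its level varied 20.7-fold over responder clusters and 2.95-fold over non-responder clusters. The responder values were 824.6 CPM in cluster 9, 278.2 in cluster 14, 116.7 in cluster 1, 110.2 in cluster 5, 88.8 in cluster 4, 85.3 in cluster 10, 41.2 in cluster 8 and 39.9 in cluster 7. Neighbours in this order separated at 4 steps, among them cluster 9 from cluster 14 and cluster 14 from cluster 1. In the non-responder library cluster 9 was also the highest, with 148.2 CPM, and cluster 8 the lowest, with 50.1 CPM. No neighbours separated there, but the intervals of cluster 9 [128.1 to 170.6] and cluster 8 [43.7 to 57.2] lay apart. Within cluster 9 the log2 ratio was 2.48 [2.19 to 2.76], from 224 counts in 42 responder cells and 194 counts in 159 non-responder cells. Cluster 9 was an uncertain macrophage-like cluster: against all other clusters its 10 leading genes held 3 neutrophil and 2 own markers, and Retnlg, one of its 3 leading genes, was at 0 in all responder macrophage-like cells. Whether its cells are of the same kind in each library was not tested. The other 4 shared clusters had ratios between -0.67 and 0.04, each with an interval that held 0.

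Few cells carried much of the Pltp RNA of cluster 9. At 1000 CPM or more of Pltp within a cell there were 19 responder and 10 non-responder macrophage-like cells, of which 13 responder and 6 non-responder cells were in cluster 9. After these cells had been looked at, a set of macrophage-like cells was described by genes found in them, as cells with a UMI of at least 2 of the 4 genes Lyve1, Cd209f, Fcna and Cbr2. These genes are known from resident tissue macrophages. The set held 7 responder cells, all in cluster 9, and 51 non-responder cells, of which 7 were in cluster 9. Of the set, 6 responder and 7 non-responder cells were among the cells at 1000 CPM or more of Pltp, so a high Pltp level of the set follows from its choice. The 7 responder cells held 117 of the 224 Pltp counts of cluster 9. Pltp was at 1575 CPM in the 7 responder cells and 101.4 CPM in the other responder macrophage-like cells. In the non-responder library it was at 235.3 CPM in the 51 cells and 67.6 CPM in the others. Abca1 was higher in the set in each library too, with 121.2 CPM in the set against 52.8 CPM in other cells of the responder library, and 87.9 CPM against 53.7 CPM in the non-responder library. Nr1h3 had 1 count in the 7 responder cells. Without the set, cluster 9 still had 542.2 CPM of Pltp in 35 responder cells and 88.8 CPM in 152 non-responder cells. The exons of Pltp share 495 bases, 19.3% of their length, with the antisense gene Ctsa, and whether counting used strand is not given in the sources used here. Ctsa was lower in responder cells, with 453.3 CPM against 582.0 CPM in non-responder cells, and its r with Pltp over the 8 clusters was -0.45 in the responder library and -0.30 in the non-responder library.

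Mylip (ENSMUSG00000038175, chr13:45389742-45412022, plus strand) encodes IDOL, a ubiquitin ligase and known LXR target. It was at 27.5 CPM in responder and 13.7 CPM in non-responder macrophage-like cells, a log2 ratio of 1.004 [0.84 to 1.17]. Responder clusters ran from 41.1 CPM in cluster 14 to 15.0 CPM in cluster 8, and non-responder clusters from 18.0 CPM in cluster 8 to 0 counts in cluster 7. Cluster 8 was thus the lowest of the responder order and the highest of the non-responder order, where its 31 responder cells held 4 counts. Of the 4 shared clusters with counts in each library, 3 were higher in responder cells, and cluster 8 had a log2 ratio of -0.26. The interval of cluster 4 alone lay above 0, at 1.53 [0.16 to 3.42], from 236 responder and 4 non-responder counts.

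Lpcat3 (ENSMUSG00000004270, chr6:124663027-124704418, plus strand) encodes an enzyme that places polyunsaturated fatty acids in phospholipids. It was at 20.3 CPM in responder and 27.6 CPM in non-responder macrophage-like cells, a log2 ratio of -0.45 [-0.59 to -0.31], within 1.5-fold. Of the 5 shared clusters, 2 had Lpcat3 higher and 3 had Lpcat3 lower in responder cells. The log2 ratios ran from -0.94 in cluster 9 to 0.38 in cluster 4, and each interval held 0. Lpcat3 was the flattest of the 8 genes over responder clusters, from 22.1 CPM in cluster 4 to 11.2 CPM, from 3 counts, in cluster 8, with no neighbours separated. Cluster 8 was the lowest in the non-responder library as well, with 14.8 CPM against 33.3 CPM in cluster 3, the highest. Its exons share 334 bases, 10.2%, with the antisense gene Emg1, which had 119.6 CPM in responder and 146.7 CPM in non-responder cells. The part of Emg1 in the result was not tested.

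Srebf1 (ENSMUSG00000020538, chr11:60199089-60222581, minus strand) was at 9.53 CPM in responder and 16.9 CPM in non-responder macrophage-like cells, a log2 ratio of -0.82 [-1.01 to -0.63]. Responder clusters lay between 3.75 CPM in cluster 8, from 1 count, and 14.7 CPM in cluster 9, from 4 counts. Non-responder clusters lay between 7.28 CPM in cluster 4 and 27.6 CPM in cluster 10, and neighbours did not separate in either library. Of the 5 shared clusters 4 were lower in responder cells, and the interval lay below 0 in cluster 10, with a log2 ratio of -1.36 [-2.20 to -0.40].

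Scd2 (ENSMUSG00000025203, chr19:44293674-44306864, plus strand) encodes an enzyme that turns saturated into monounsaturated fatty acids. Over all macrophage-like cells it was at 9.28 CPM in responder and 19.5 CPM in non-responder cells, a log2 ratio of -1.07 [-1.26 to -0.89]. In cluster 8 the direction was the opposite, with 82.5 CPM from 22 counts in 31 responder cells and 24.8 CPM from 109 counts in 413 non-responder cells, a log2 ratio of 1.73 [0.999 to 2.40]. The other responder clusters had 25.8 CPM in cluster 9, 15.8 in cluster 4, 14.9 in cluster 7, 7.93 in cluster 10, 4.58 in cluster 5, 4.01 in cluster 14 and 3.43 in cluster 1. Clusters 5, 14 and 1, which hold few non-responder cells, were thus the low end of the responder order. Non-responder clusters lay between 30.6 CPM in cluster 9 and 12.8 CPM in cluster 10, apart from cluster 7 with 0 counts. Of the 4 shared clusters with counts in each library, 3 were lower in responder cells, with log2 ratios of -0.62 in cluster 4, -0.25 in cluster 9 and -0.69 in cluster 10, each with an interval that held 0. The mean of the 4 was 0.046, which cluster 8 alone brought above 0.

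Apoc2 encodes the apolipoprotein that activates lipoprotein lipase, and it was close to absent, with 22 counts in 4150 responder and 25 counts in 2358 non-responder macrophage-like cells. The log2 ratio of -0.74 [-1.63 to 0.15] held 0. The symbol stood for a pair of identifiers. All 48 counts belonged to ENSMUSG00000002992 (chr7:19671579-19677941, minus strand), and ENSMUSG00000109350, which GENCODE M21 calls Gm44805, had 0. The pair shares 646 exonic bases on the same strand, 79.5% of the first, and how reads from the shared bases were counted is not given in the sources, so the level is uncertain.

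**Figure D2:**
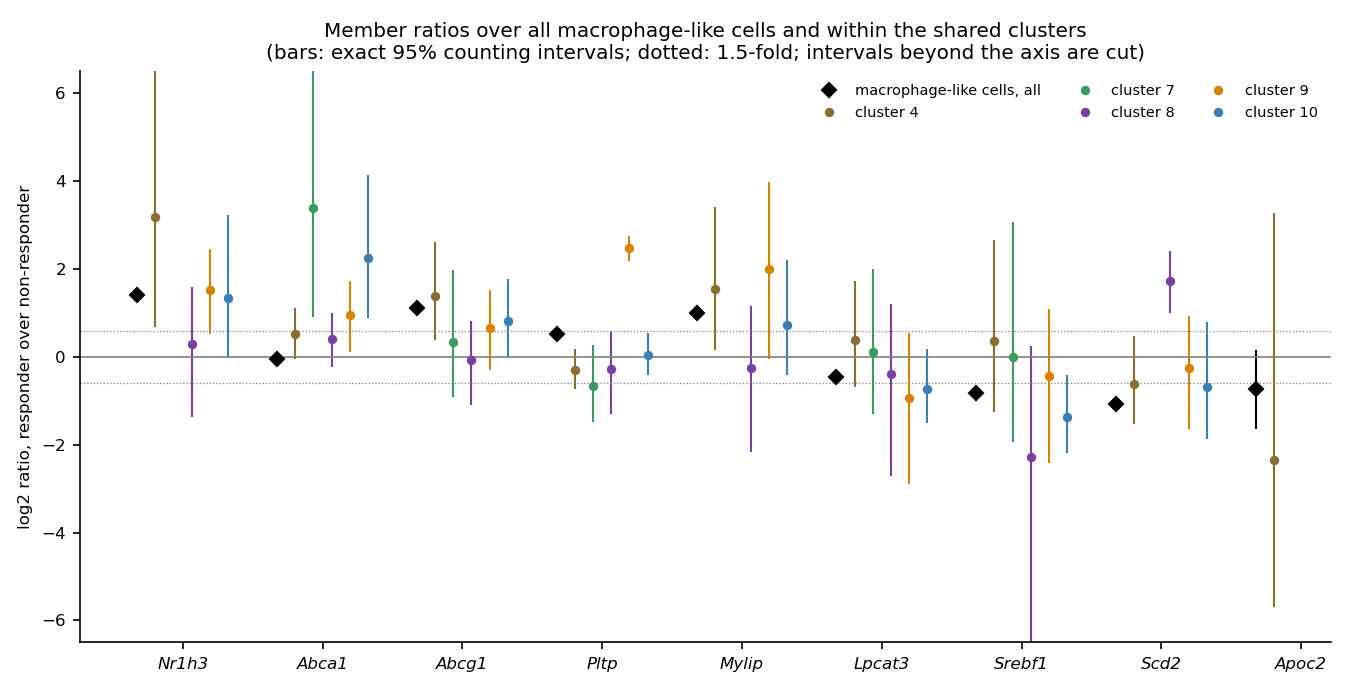
Log2 ratio, responder over non-responder (vertical axis), of each gene over all macrophage-like cells (black diamonds) and within the 5 shared clusters (circles). Bars are exact 95% counting intervals, dotted lines mark 1.5-fold, and bars that leave the axis are cut. Abca1 is near 0 over all cells and above 0 in every shared cluster, while Pltp in cluster 9 and Scd2 in cluster 8 stand above the other clusters of those genes.

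RNA of other cell types in the macrophage-like cells also differed between the libraries. The summed level of 12 dendritic cell markers was 60.7 CPM in responder cells, where Flt3 and Cd209a were at 0, and 25.8 CPM in non-responder cells, where Zbtb46 was at 0. The 8 neutrophil markers were at 28.7 CPM in responder and 121.0 CPM in non-responder cells, with Retnlg and G0s2 at 0 in the responder cells. Endothelial markers were at 44.0 CPM in responder and 11.8 CPM in non-responder cells, with Cldn5 at 0 in each library. The 13 macrophage markers were at 37436 CPM in responder and 37687 CPM in non-responder cells. The part of these other cells in the gene ratios was not tested.

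Outside the macrophage-like class Nr1h3 and Abca1 were sparse, while Pltp in dendritic-like cells was above its macrophage-like level in each library. In T cell-like cells, of which there were 94 in the responder library and 69 in the non-responder library, Nr1h3 had 0 responder counts and 1 non-responder count, Abca1 had 1 responder count and 3 non-responder counts, and Pltp had 3 responder counts and 1 non-responder count. Srebf1 and Lpcat3 did not thin out in the same way: Lpcat3 was at 26.8 CPM in responder and 27.4 CPM in non-responder T cell-like cells, each from 11 counts, and Srebf1 at 12.2 CPM from 5 responder counts and 27.4 CPM from 11 non-responder counts. Dendritic-like cells carried Pltp, at 345.8 CPM in 20 responder cells and 121.4 CPM in 82 non-responder cells. The log2 ratio was 1.51 [0.996 to 2.01], an interval that covers counting error only. Of these cells, 2 responder cells and 1 non-responder cell were at 1000 CPM or more of Pltp. With non-responder cells thinned to equal depth, 12 of the 82 had a UMI of Pltp, and 1 cell held 8 of the 22 UMIs. The part of single cells in this ratio was not tested. Nr1h3 had 1 count in the responder dendritic-like cells and 0 in the non-responder ones. Abcg1 had 4 responder and 9 non-responder counts in dendritic-like cells, and 4 counts in T cell-like cells of each library. Fibroblast-like cells had Scd2 at 120.4 CPM in 22 responder and 166.2 CPM in 20 non-responder cells, a log2 ratio of -0.47 [-0.86 to -0.07], and Lpcat3 at 9.06 CPM in responder and 35.0 CPM in non-responder cells, a log2 ratio of -1.95 [-3.39 to -0.72].

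**Figure D3:**
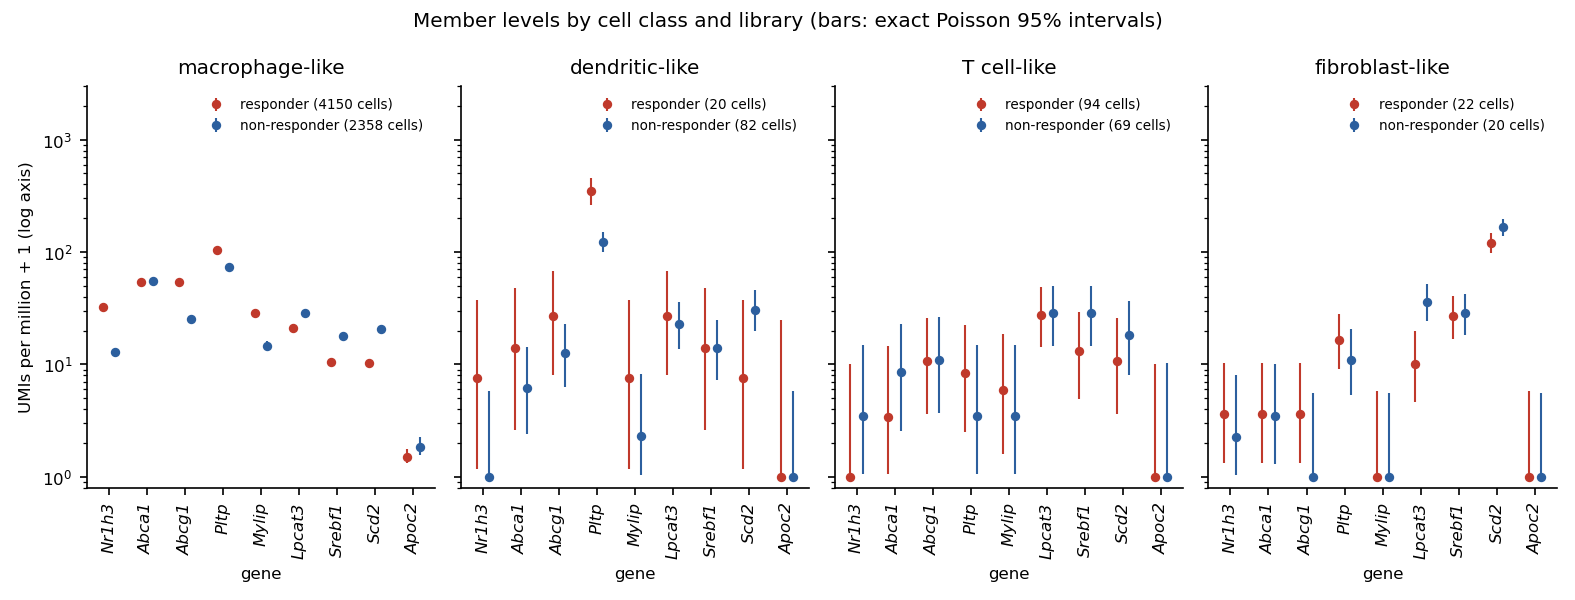
Level of each gene as CPM plus 1 on a log axis in 4 cell classes, responder in red left of non-responder in blue, with exact Poisson 95% intervals and the number of cells in each legend. Nr1h3 lies near the floor outside the macrophage-like class, Pltp is at 345.8 CPM in responder and 121.4 CPM in non-responder dendritic-like cells, and Scd2 is at 120.4 CPM in responder and 166.2 CPM in non-responder fibroblast-like cells.

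To compare cells of unequal depth, each cell was thinned to 3000 UMIs, which left out 88 responder and 2 non-responder macrophage-like cells. Nr1h3 was then seen in 8.74% [7.89 to 9.65] of responder cells and 3.82% [3.08 to 4.67] of non-responder cells of the macrophage-like class, against 20.8% of responder cells and 11.0% of non-responder cells before thinning. In thinned T cell-like cells it was seen in 0 of 79 responder cells and 0 of 69 non-responder cells. At 3 counts of the total this allows a share of up to 3.80% in responder and 4.35% in non-responder cells, and the exact intervals end at 4.56% in responder and 5.21% in non-responder cells. In the 82 non-responder dendritic-like cells Nr1h3 had 0 counts before thinning, with an exact upper limit of 4.76 CPM, against 11.8 CPM in non-responder macrophage-like cells. Median depths before thinning were 10073.5 UMIs in responder and 11946.5 in non-responder macrophage-like cells, and 3705 UMIs in responder and 4912 in non-responder T cell-like cells. Abca1 was seen in 13.1% [12.1 to 14.2] of responder cells and 14.5% [13.1 to 16.0] of non-responder cells of the macrophage-like class, against 35.5% of responder cells and 39.7% of non-responder cells before thinning. Abcg1 was seen in 13.6% [12.5 to 14.7] of responder cells and 7.39% [6.36 to 8.52] of non-responder cells, against 37.2% of responder cells and 22.1% of non-responder cells before thinning. In T cell-like cells Abcg1 was seen in 2 of 79 cells of the responder library and 3 of 69 cells of the non-responder library. Srebf1 was seen in 2.88% of responder cells and 4.75% of non-responder cells of the macrophage-like class, and in 2.53% of responder cells and 10.1% of non-responder cells of the T cell-like class. Lpcat3 and Scd2 likewise did not exceed their T cell-like shares in the non-responder library. For these 3 genes the shares are therefore not read as a difference. Pltp was the most uneven, with a variance of 1.67 times its mean in thinned responder cells and 1.48 times in non-responder cells, and up to 12 UMIs in a responder cell and 6 in a non-responder cell. For Abcg1 the variance was 1.07 times the mean in responder cells and 1.13 times in non-responder cells.

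Co-variation of the 9 genes over macrophage-like clusters was counted in pairs. Over 8 clusters, 11 of 36 gene pairs, or 30.6%, had a Pearson r of 0.5 or more on log2(CPM + 1) in the responder library, against 25.4% of all pairs among 7008 genes. In the non-responder library it was 10 of 36 pairs, or 27.8%, against 21.5%. Without Apoc2, whose counts are too few for the background, it was 9 of 28 responder pairs, or 32.1%, and 7 of 28 non-responder pairs, or 25.0%. These shares are near the background, so whether the 9 genes vary together is not read from them. The clusters of a library share that library and its free RNA, so r is a description. In both libraries 3 pairs were at 0.5 or more, and the share of all gene pairs that reach this in both was not computed. Abca1 and Scd2 had 0.72 in the responder library and 0.80 in the non-responder library, Nr1h3 and Srebf1 had 0.59 for responder and 0.67 for non-responder clusters, and Nr1h3 and Mylip had 0.53 for responder and 0.73 for non-responder clusters. Non-responder cluster 7, with 26 cells and 0 counts of Nr1h3, Mylip and Scd2, decided some of these values. Without cluster 7, Nr1h3 and Mylip had 0.58 for responder and -0.07 for non-responder clusters. Abca1 and Scd2 then had 0.74 for responder and 0.56 for non-responder clusters, and Nr1h3 and Srebf1 had 0.60 for responder and 0.61 for non-responder clusters. Nr1h3 and Abcg1 rose from 0.59 to 0.78 for responder and from 0.41 to 0.71 for non-responder clusters. Again 3 pairs were at 0.5 or more in both libraries, but not the same 3. Other clusters mattered too: the responder value of Nr1h3 and Srebf1 was 0.46 without cluster 8, and that of Nr1h3 and Mylip was 0.24 without cluster 14. Mylip with Scd2 had -0.76 for responder and 0.83 for non-responder clusters, but -0.83 for responder and -0.58 for non-responder clusters without cluster 7. Nr1h3 with Pltp had 0.76 for responder and 0.22 for non-responder clusters. With each cluster left out in turn, that pair ranged from 0.71 to 0.81 for responder and from -0.12 to 0.45 for non-responder clusters. Over the alternatives tried, the number of pairs at 0.5 or more ran from 2 to 13 in the responder library and 4 to 15 in the non-responder library, and without cluster 7 it was 13 responder and 6 non-responder pairs. The shares of all gene pairs were not computed for these alternatives, so no such count is read as a result.

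**Figure D4:**
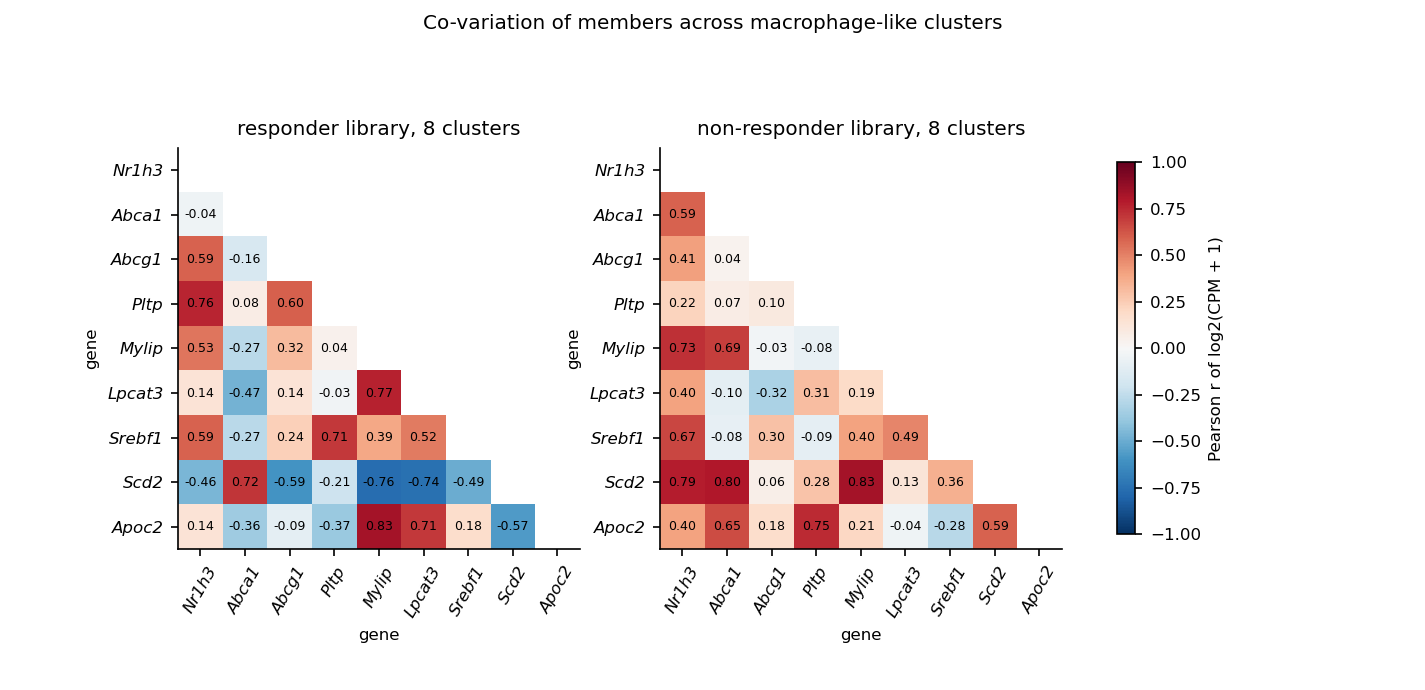
Pearson r of log2(CPM + 1) for each pair of genes over 8 macrophage-like clusters, responder library on the left and non-responder on the right, red for positive and blue for negative r. Abca1 with Scd2 is red at 0.72 in the responder panel and 0.80 in the non-responder panel, and Nr1h3 with Pltp is at 0.76 in the responder panel and 0.22 in the non-responder panel. The 0.83 of Mylip with Scd2 in the non-responder panel rests on cluster 7 and is -0.58 without it.

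Among 7007 other genes, the profiles most like that of Nr1h3 over clusters, by the lower r of the libraries, were 1600012H06Rik with 0.88 in the responder library and 0.81 in the non-responder library and Tfeb with 0.80 for responder and 0.77 for non-responder clusters. For Abca1 they were Arpc3 with 0.87 for responder and 0.92 for non-responder clusters, and Pitpnc1 with 0.93 for responder and 0.86 for non-responder clusters. Abcg1 had the least alike partners, Rasgef1b with 0.75 for responder and 0.93 for non-responder clusters and Arhgef3 with 0.72 for each. Pltp was followed by Klf10 and Mettl23, Mylip by Clcn7 and Coa4, Lpcat3 by BC037034 and Bad, Srebf1 by Nln and Kif1b, and Scd2 by Hipk1 and R3hdm1. Some of these values rested on 1 cluster: without cluster 7 the non-responder r of Nr1h3 with Tfeb was 0.24, and without cluster 9 the responder r of Pltp with Mettl23 was 0.58. With 8 points and so many genes, high values of r are common. Within clusters the median pair of genes was seen in the same cells about as often as the shares of its genes predict. The observed over expected number of cells with a UMI of both genes had a median of 1.09 over 22 responder pairs and 1.07 over 14 non-responder pairs with at least 10 cells expected, from 0.90 to 1.35 in the responder library and 0.70 to 1.57 in the non-responder library. Over all genes the median ratio with a given gene of the 9, Apoc2 apart, was 0.99 to 1.01. Ratios of 1.2 or more were reached by 3 responder and 4 non-responder pairs. Pltp with Srebf1 had 1.35 for responder and 1.23 for non-responder cells. Abca1 with Srebf1 had 1.57 for non-responder but 1.12 for responder cells. The counts are sparse, a median this close to 1 is no finding, and no single pair is read as a finding.

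The genes around the 9 in the same pathway, taken from lists that were also chosen with earlier results known, differed most on the synthesis side. Of 26 measured genes of cholesterol synthesis and uptake, 20 were lower by 1.5-fold or more in responder macrophage-like cells and 0 were higher, with a median log2 ratio of -1.49, beside 11.4% of all genes lower and their median of -0.09. Sqle, the squalene epoxidase, was at 2.46 CPM in responder and 24.4 CPM in non-responder cells, a log2 ratio of -3.31 [-3.62 to -3.02]. Srebf2 itself was at 8.28 CPM in responder and 21.7 CPM in non-responder cells, a log2 ratio of -1.39 [-1.58 to -1.20]. The smallest differences were those of Scap, the escort protein of SREBP factors, with -0.01 [-0.28 to 0.27], and of Ebp, a sterol isomerase, with -0.10 [-0.17 to -0.04], both within the shift that TMM scaling makes.

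The lower level of the synthesis genes was also present inside the clusters. Their summed level was 294.1 CPM in responder and 499.8 CPM in non-responder cells of cluster 4, and 373.3 CPM in responder and 971.9 CPM in non-responder cells of cluster 10. In cluster 7 it was 344.2 CPM in responder and 645.8 CPM in non-responder cells, in cluster 8 it was 210.0 CPM in responder and 336.0 CPM in non-responder cells, and in cluster 9 it was 301.9 CPM in responder and 565.2 CPM in non-responder cells. The 5 log2 ratios ran from -1.38 to -0.68, and every interval lay below 0. In other classes the sum was lower in the responder library as well. T cell-like cells had 440.6 CPM in the responder library and 602.7 CPM in the non-responder library, a log2 ratio of -0.45 [-0.74 to -0.17]. Dendritic-like cells had 534.9 CPM in responder and 920.5 CPM in non-responder cells, a log2 ratio of -0.78 [-1.13 to -0.45]. Fibroblast-like cells had 438.8 CPM in responder and 542.5 CPM in non-responder cells, a log2 ratio of -0.31 [-0.52 to -0.10]. A property of a whole library cannot be told apart from the response with 1 library in each group.

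The other pathway lists were smaller or mixed. Genes are counted as higher or lower at 1.5-fold or more, beside 8.08% of all genes higher and 11.4% lower. Of 11 measured genes of lipoprotein and lipid uptake, 9 were lower in responder cells and 0 higher, with a median of -1.01. Fabp4, a fatty acid carrier, was at 0.418 CPM in responder and 4.52 CPM in non-responder cells, a log2 ratio of -3.44 [-4.23 to -2.72], and the scavenger receptor gene Cd36 at 4.90 CPM in responder and 25.1 CPM in non-responder cells, a log2 ratio of -2.36 [-2.59 to -2.14]. Of 10 genes of fatty acid synthesis and desaturation, which include Srebf1 and Scd2, 4 were lower and 0 higher, with a median of -0.46. Elovl6, which lengthens fatty acids, had the lowest ratio among these 10 genes, -1.58 [-2.13 to -1.05]. With the limit at 10 or more counts in place of 50, 7 of 13 genes were lower, against 14.8% of all genes. Of 10 known LXR targets outside the 9 genes, 1 was higher and 4 were lower, with a median of -0.19. That median was -0.70 over the 12 genes with 10 or more counts. Tgm2, which encodes transglutaminase 2, was at 507.4 CPM in responder and 153.0 CPM in non-responder cells, a log2 ratio of 1.73 [1.68 to 1.78]. Apoc4 had a log2 ratio of -1.96 [-2.59 to -1.36] and the lipoprotein lipase gene Lpl one of -1.89 [-2.12 to -1.68]. Mertk, a receptor for dying cells, was at 20.2 CPM in responder and 15.9 CPM in non-responder cells, and Fasn at 3.46 CPM in responder and 6.83 CPM in non-responder cells, a log2 ratio of -0.98 [-1.30 to -0.67]. Of the 3 genes that share the promoter letters, Abca1 was therefore level over all macrophage-like cells, while Srebf1 and Fasn were lower.

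Apoe, whose protein takes up cholesterol outside the cell, was at 12279 CPM in responder and 10965 CPM in non-responder cells, a log2 ratio of 0.16 [0.16 to 0.17]. Apoc1 had a log2 ratio of 0.05 [-0.47 to 0.59]. Of 12 receptors and cofactors, 2 were higher and 1 lower by 1.5-fold or more, with a median of 0.12. The shares of all genes, for this list and those below, were 8.08% higher and 11.4% lower. Beside Nr1h3 the higher one was Pparg, the gene of a fatty acid receptor, at 4.85 CPM in responder and 2.89 CPM in non-responder cells, and the lower one Nr1d1, a clock repressor, at 0.951 CPM in responder and 3.26 CPM in non-responder cells. Ncoa3, a coactivator, had the next lowest ratio of -0.41 [-0.54 to -0.27]. Of 16 genes of cholesterol transport and storage inside the cell, 1 was higher and 2 were lower, near the shares of all genes, with a median of -0.20. Lipe, a lipase of stored lipid, had 0.63 and Pnpla2, another such lipase, 0.45, while Soat2, which forms cholesterol esters, had -0.90 and Nceh1, which splits them, had -0.81. Of the 2 measured oxysterol enzymes, Ch25h was at 98.8 CPM in responder and 112.3 CPM in non-responder cells, and Cyp27a1 at 19.3 CPM in responder and 14.8 CPM in non-responder cells, so neither was past 1.5-fold. Of 6 other ABC transporters of the A and G classes 0 were past 1.5-fold, with ratios from -0.53 for Abca9 and -0.34 for Abca7 to 0.24 for Abcg2 and 0.29 for Abcg3. Of 10 phospholipid remodelling genes 2 were lower, Lpcat4 with -1.08 and Mboat1 with -0.82, and Pla2g7 and Mboat7 were the highest with 0.27 and 0.33. Of 21 genes that mark macrophage states, 6 were higher and 10 lower, from Cxcl9 with 3.52 and H2-Ab1 with 2.55 to Gpnmb with -3.62 and Spp1 with -4.27.

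**Figure D5:**
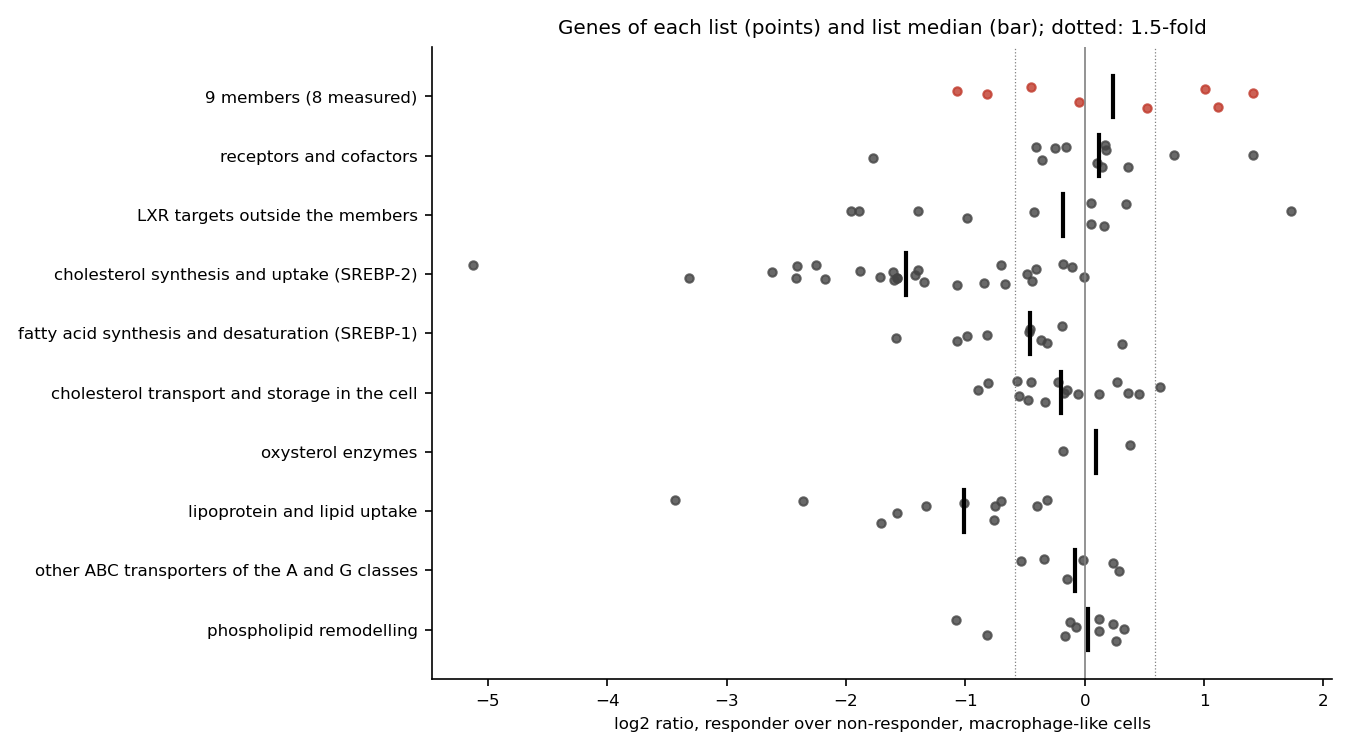
Log2 ratio, responder over non-responder, in macrophage-like cells (horizontal axis) for the 8 measured genes in red and the measured genes of the pathway lists in grey, with black bars at each median and dotted lines at 1.5-fold. The list of cholesterol synthesis and uptake has its median at -1.49 and no gene right of the upper dotted line, while the 8 genes lie on both sides of 0.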

How the data were processed

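Single-cell RNA of CD45+ tumour cells was captured with a droplet 3′ kit, per the labels' protocols. The authors deposited whole-number UMI counts per gene and barcode for each library, and Cell Ranger 1.1.0 and the build mm10 (GRCm38) are named in the submitters' processing notes. Settings for strand and annotation are not given. The genes and lists were chosen with earlier results of these data known.

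From these counts, cells with at least 500 detected genes and at most 10% mitochondrial UMIs were kept (scanpy 1.11.5). Scrublet called 2 doublets, so doublets were in effect not removed. Cells were clustered together (2000 variable genes without the 9 genes, 30 components, 15 neighbours, Leiden resolution 1) and clusters with T or NK cell markers were clustered again. Names came from marker lists, with a scoring rule set after the data were seen: 75% of macrophage or monocyte markers at 50 CPM or more in at least 10% of cells for macrophage-like, 50% of T or NK cell markers for those classes, and markers among the 10 leading genes for dendritic-like (2) and fibroblast-like (3). Clusters with both kinds, 89 responder and 19 non-responder cells, were kept apart. Cluster 9 had 3 neutrophil and 2 own markers among its 10 leading genes against all clusters.

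Counts were summed per library and group and scaled to CPM, with exact Poisson intervals. Log2 ratios have conditional exact binomial intervals and shares exact Clopper-Pearson intervals, at 95%. No test was made between groups. The named genes were the 9 genes, the 2 highest and 2 lowest measured genes of each list with Nr1h2, Rxra, Apoe, Apoc1, Srebf2 and Ch25h, the 2 most alike profiles among genes with 200 or more counts in each library, and the 3 leading genes of a cluster. Some genes that this rule names are not reported here. Fasn was named for its promoter, and the Lyve1, Cd209f, Fcna and Cbr2 cells, Ctsa and Emg1 were chosen after values were seen. Promoters came from RefSeq and positions from GENCODE M21 by Ensembl identifier. The functions were tested on simulated data.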

Additional observations from a re-analysis of the deposited data

How the results depend on the processing

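No paired analysis was possible because each group has 1 library and the labels give no replicate numbers. The number of the 8 genes past 1.5-fold on the high side was 3 or 4 in all 18 alternatives. The number on the low side, 2, was 1 with each shared cluster weighted equally and 1 at 2-fold, and within 1 of the main count in the others. Nr1h3, Abcg1 and Mylip were past 1.5-fold high in all 17 alternatives with a ratio and Srebf1 low in all 17, while Scd2 turned to 0.046 with equal cluster weights. TMM factors (edgeR 4.0.16) moved the median of all genes by 0.12 and made 11.0% of genes higher and 8.36% lower.

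Pairs at r of 0.5 or more, 11 in the responder library and 10 in the non-responder library, were 7 and 6 with all list genes left out of the variable genes, 4 and 6 at resolution 0.5, 2 and 5 at resolution 2.0, 4 and 4 with 1000 variable genes, 2 and 6 with each library clustered on its own, 5 and 6 with thinned cells and 6 and 5 at r of 0.7. With clusters of 50 or more cells the responder library had 6. Without cluster 7, an alternative chosen after seeing the data, there were 13 responder and 6 non-responder pairs, and 26 non-responder cells with 0 counts of 3 genes are what it takes out. Without cluster 9 there were 13 responder pairs, and without the 5% of cells with the highest Scrublet score 15 non-responder pairs. The cause of the other shifts was not tested, and the shares of all gene pairs were not computed for these alternatives. Members with the repeat in a promoter, 0 at up to 2 mismatches, were 2 at up to 3 mismatches and 2 with the letters chosen afterwards. No cluster had 50 cells of each library, so that alternative gave no value. Counts below about 10 in a cluster give intervals several log2 units wide, which limits the non-responder values of clusters 4, 7 and 10 and the responder values of clusters 8 and 9.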
